A study of Mus musculus with 3 samples.

Results

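The major histocompatibility complex (MHC) class II genes H2-DMa, H2-DMb1, H2-DMb2, Cd74, H2-Aa, H2-Ab1, H2-Eb1 and Ciita were examined in chondrocytes of the mouse fracture callus. They are 8 of the 32285 genes in the deposited matrices and were matched by symbol. They were chosen from these data, because the 3 H2-DM genes lead a chondrocyte cluster. The contrast of the H2-DM genes between chondrocytes and the other callus cells is therefore given as a description.

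Callus was taken from C57BL/6 mice with a femoral fracture at day 7, day 10 and day 14 after fracture. The paper states that buprenorphine was given for pain around the operations. Live cells negative for CD45, CD31 and TER119 were sorted and captured as 1 droplet library per day, and each transcript molecule was counted once by its unique molecular identifier (UMI). With 1 library per day, no test between days was possible. Cell groups were compared within each library and were not tested, because the genes were chosen from these same cells. The intervals below are exact 95% intervals that cover counting error only, and a difference between days cannot be told apart from a difference between libraries.

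In antigen-presenting cells such as B cells, macrophages and dendritic cells, an alpha and a beta chain pair into the class II molecule that shows peptides to CD4 T cells. Cd74, the invariant chain, holds the new molecule and fills its groove until it reaches the endosome. There the H2-DM heterodimer, made of the alpha chain H2-DMa and a beta chain from H2-DMb1 or H2-DMb2, removes the last fragment of the invariant chain and helps peptides to bind. H2-Aa and H2-Ab1 encode the alpha and beta chains of the I-A molecule, and H2-Eb1 encodes the beta chain of I-E. Mice of the C57BL/6 background make no I-E alpha chain. Ciita is the transactivator that switches these genes on together in antigen-presenting cells, through X and Y boxes in their promoters.

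Limits on gene number and on mitochondrial and hemoglobin share kept 7017, 6593 and 9853 cells in the day 7, day 10 and day 14 libraries, with median depths of 5056, 17370 and 15802 UMIs. The day 7 library stood apart, because 6570 of its cells held UMIs of Ptprc, which encodes the CD45 antigen that the sort removed, against 6 and 173 in the later libraries. The cells without a Ptprc UMI numbered 447, 6587 and 9680. Any pair of libraries shared from 29 to 42 cell barcodes. No doublet caller was run.

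Chondrocytes were taken as cells without a Ptprc UMI and with 20 or more UMIs of Cnmd (chondromodulin, a cartilage glycoprotein) per 10000. These cells numbered 48, 2522 and 1406 in the libraries of day 7, day 10 and day 14. Most cells rich in Col10a1, the type X collagen of hypertrophic chondrocytes, fell outside this group, so results for chondrocytes below describe Cnmd-rich cells. Cells with 100 or more Col10a1 UMIs per 10000 numbered 476 at day 10 and 1116 at day 14. Of these, 40 and 27 had 20 to 50 Cnmd UMIs, and 2 and 0 had 50 or more. Aspn-high cells had 20 or more UMIs per 10000 of Aspn (asporin, a marker of the fibroblastic progenitors) and fewer than 5 of Cnmd, and numbered 13, 1170 and 2898. Ifitm5-high cells had 5 or more of Ifitm5, an osteoblast membrane protein, and fewer than 5 of Cnmd, and numbered 8, 122 and 365. Of the day 10 and day 14 chondrocytes, 145 and 74 also passed the Aspn limit. Cartilage markers were high in these chondrocytes. Col2a1, the type II collagen of cartilage, stood at 45692 UMIs per 1000000 (CPM) in the Cnmd bin at day 10 and 40223 at day 14, against 706 and 660 in Aspn-high cells. In the Col10a1-rich cells it stood at 29060 and 20858. All 11 chondrocyte markers on the list were detected in the Cnmd bin. At day 10 and day 14 the bin held few signs of antigen-presenting cells: the 6 B cell markers summed to 0.622 CPM at day 10 and 0.239 at day 14, the 7 macrophage markers to 5.25 and 6.92, and the 6 dendritic cell markers to 3.92 and 3.31. Ms4a1, Adgre1, Flt3, Xcr1 and Siglech were at 0 on both days. The 48 day 7 cells carried more myeloid signal, with macrophage markers summed to 66.6 CPM, mostly Lyz2 at 62.5, and S100a8, a neutrophil gene, at 695; its part in the day 7 values was not tested.

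H2-DMa and H2-DMb1 were the class II genes with the highest levels in chondrocytes, and H2-DMb2 was below H2-Ab1 on each day. Levels are CPM over the summed cells; in this 3′ count a molecule gives 1 UMI whatever its length, so levels were not divided by length. H2-DMa, the alpha chain, stood at 25.6 CPM (95% interval 16.6 to 37.8) at day 7, 56.9 (54.8 to 59.1) at day 10 and 81.9 (78.6 to 85.2) at day 14. H2-DMb1, the main beta chain, stood at 39.0 (27.6 to 53.5), 57.8 (55.7 to 60.0) and 97.0 (93.4 to 101). H2-DMb2, the other beta chain, stood at 6.15 (2.26 to 13.4), 12.9 (11.9 to 14.0) and 15.4 (14.0 to 16.9). The alpha chain and H2-DMb1 were thus at like levels at day 10, and H2-DMb2 was below both on every day.

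H2-Ab1, the beta chain of I-A, was the only surface chain with a level in chondrocytes near those of the H2-DM genes. It stood at 22.6 CPM (14.1 to 34.2) at day 7, 18.4 (17.2 to 19.6) at day 10 and 42.5 (40.2 to 44.9) at day 14. Its partner H2-Aa stood at 1.03, 0.290 and 0.170 CPM, from 1, 14 and 5 UMIs. Cd74 stood at 1.03, 0.228 and 0.409 CPM, from 1, 11 and 12 UMIs. H2-Eb1 stood at 3.08, 0.166 and 0.511 CPM, from 3, 8 and 15 UMIs. Ciita had 0, 2 and 1 UMIs, too few to give a level. In chondrocytes, 4 of the 8 genes therefore carried almost all of the class II UMIs: H2-DMa, H2-DMb1, H2-DMb2 and H2-Ab1.

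**Figure D1:**
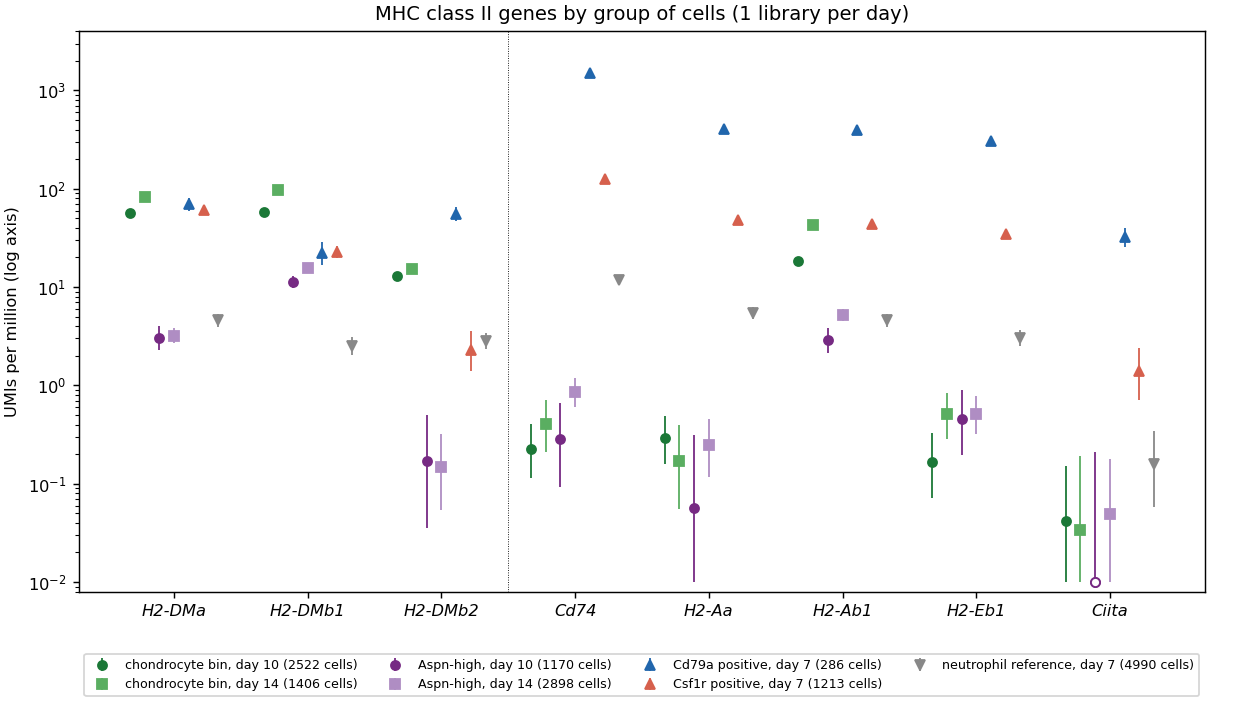
Level of each class II gene (CPM, log axis) in chondrocytes (chondrocyte bin) and Aspn-high cells of day 10 and day 14 and in the Cd79a-positive, Csf1r-positive and S100a8-high (neutrophil reference) cells of day 7; bars are exact 95% Poisson intervals and an open symbol at the foot marks 0 UMIs. H2-DMa, H2-DMb1, H2-DMb2 and H2-Ab1 lie high in the chondrocytes (56.9, 57.8, 12.9 and 18.4 at day 10), whereas Cd74, H2-Aa and H2-Eb1 lie below 1 there and above 300 in the day 7 Cd79a-positive cells.

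Promoters were read for the genes with a RefSeq window, since the H2-DM genes were detected in chondrocytes with almost no Cd74. RefSeq start sites on GRCm38.p6 gave 140 bases before the start for H2-DMa, H2-DMb1, H2-DMb2, H2-Aa and H2-Eb1; the sequences are shown because the X and Y boxes are the letters through which Ciita acts. Capitals mark the X letters, which are CTNNNAAC, any base and GATGATG in a row, and the Y letters GATTGG, searched on both strands and chosen after reading these windows. The windows are chr17:34122692-34122831 for H2-DMa, chr17:34153051-34153190 for H2-DMb1, chr17:34145109-34145248 for H2-DMb2 and chr17:34305727-34305866 for H2-Eb1, all on the plus strand, and chr17:34287824-34287963 for H2-Aa on the minus strand. In H2-Aa the capitals to the left mark only the shorter letters CTNNNAAC, and the last capitals of H2-Eb1 are the Y letters on the minus strand.
H2-DMa: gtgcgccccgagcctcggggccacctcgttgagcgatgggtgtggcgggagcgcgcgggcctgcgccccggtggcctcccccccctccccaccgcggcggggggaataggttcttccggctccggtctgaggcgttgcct
H2-DMb1: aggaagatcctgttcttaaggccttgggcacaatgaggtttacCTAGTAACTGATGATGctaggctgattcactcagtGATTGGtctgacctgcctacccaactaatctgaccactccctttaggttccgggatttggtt
H2-DMb2: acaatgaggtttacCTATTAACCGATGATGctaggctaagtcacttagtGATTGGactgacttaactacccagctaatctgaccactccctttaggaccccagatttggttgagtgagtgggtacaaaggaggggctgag
H2-Aa: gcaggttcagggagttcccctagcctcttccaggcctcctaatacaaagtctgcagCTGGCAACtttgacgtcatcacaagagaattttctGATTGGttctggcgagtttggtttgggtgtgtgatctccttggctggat
H2-Eb1: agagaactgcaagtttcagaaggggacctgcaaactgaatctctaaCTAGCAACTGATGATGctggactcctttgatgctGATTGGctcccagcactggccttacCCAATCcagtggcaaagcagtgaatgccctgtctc

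The X letters lay 97 to 82 bases before the start in H2-DMb1, 126 to 111 before it in H2-DMb2 and 94 to 79 before it in H2-Eb1. The X letters were found in 7 of 32851 RefSeq promoter windows of 300 bases (0.0213%), which belong to 5 genes: H2-DMb1, H2-DMb2, H2-Eb1, Nubp2 and Spsb3. H2-Ab1, Cd74 and Ciita had no matched window, so their promoters were not searched. The Y letters were found in 16.1% of the windows, and the shorter letters of H2-Aa in 41.1%. The printed H2-DMa window held neither motif. A second annotated start of H2-DMa held the Y letters 199 bases before it. The shorter letters lay 237 to 230 bases before that start, on the minus strand. In H2-Eb1 the shorter letters also lay 113 to 106 bases before the start, left in lower case above. Because the letters were chosen after these windows were read, their presence in these genes and their rarity are given as a description. H2-DMb1 is high in chondrocytes and H2-Eb1 is near 0 there, and a link between the letters and the levels was not tested. The H2-DM genes in the GENCODE annotation begin before the RefSeq starts used here, so for H2-DMa and H2-DMb2 the windows lie inside the GENCODE gene. No match says only that these letters are not in the window.

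H2-DMa, H2-DMb2 and H2-DMb1 lie side by side on the plus strand of chromosome 17 in GRCm38, at chr17:34119541-34139101, chr17:34143307-34151555 and chr17:34153072-34160230. H2-Ab1 (chr17:34257689-34269419), H2-Aa (chr17:34282744-34287823, minus strand) and H2-Eb1 (chr17:34305867-34316674) follow on the same chromosome. Ciita lies at chr16:10480059-10528418 and Cd74 at chr18:60803848-60812652. H2-DMb1 and H2-DMb2 are close paralogs: their transcripts matched at 89.8% of 1246 aligned bases, with a longest shared run of 221 bases. Over the last 400 bases, near which 3′ reads fall, they matched at 66.0% and the longest shared run was 23 bases. The split of UMIs between the 2 genes is uncertain for reads that fall further from the 3′ end.

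The 4 genes were lower in Aspn-high cells than in chondrocytes; H2-Ab1 was not low in all other callus cells. In Aspn-high cells H2-DMa stood at 3.07 CPM (2.30 to 4.0) at day 10 and 3.21 (2.69 to 3.81) at day 14. H2-DMb1 stood at 11.2 (9.73 to 12.9) and 15.6 (14.4 to 16.8). H2-DMb2 had 3 UMIs at day 10 and 6 at day 14, or 0.170 and 0.147 CPM. H2-Ab1 stood at 2.90 (2.16 to 3.81) and 5.20 (4.52 to 5.95). H2-DMb1 was therefore the H2-DM gene with the most UMIs in Aspn-high droplets, and H2-DMb2 was near 0. Free RNA from chondrocytes was not measured, and its part in these levels was not tested. The log2 ratio of chondrocytes to Aspn-high cells was 6.02 for Col2a1 at day 10 and 5.93 at day 14. It was 4.21 and 4.67 for H2-DMa and 2.36 and 2.64 for H2-DMb1.

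The fold between chondrocytes and Aspn-high cells was 18.6 (14.2 to 24.8) for H2-DMa at day 10 and 25.5 (21.4 to 30.6) at day 14. For H2-DMb1 it was 5.14 (4.45 to 5.97) and 6.23 (5.71 to 6.80), and for H2-Ab1 6.35 (4.79 to 8.60) and 8.17 (7.06 to 9.49). For H2-DMb2, with few UMIs in the progenitors, it was 75.7 (25.8 to 368) and 104 (47.6 to 286). Of the 8 genes, 4 had the 20 UMIs over both groups needed for a call at day 10, and all 4 were at least 2-fold higher in chondrocytes with an interval beyond 1. At day 14, 6 had enough UMIs: the same 4 were higher, Cd74 was lower by this rule (log2 ratio −1.07, interval −2.15 to −0.09, from 12 and 35 UMIs) and H2-Eb1 was neither (−0.01). By the same rule 7.60% of all genes compared were higher at day 10 and 6.87% at day 14, and 20.9% were lower at day 14. Because the rule that chose the genes used these cells, nothing is read from the comparison with this background.

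The 4 genes were also higher in chondrocytes than in Ifitm5-high cells. H2-DMa had 2 UMIs in the Ifitm5-high cells at day 10 and 9 at day 14, and the fold was 57.6 (15.9 to 476) and 47.9 (25.2 to 105). H2-DMb1 stood at 13.3 and 14.2 CPM in them, and the fold was 4.33 (2.97 to 6.58) and 6.80 (5.41 to 8.68). H2-DMb2 had 0 UMIs at day 10, and at the floor of 3 UMIs over the group it was at least 8.70-fold higher in chondrocytes; at day 14 it had 3 UMIs and the fold was 27.0 (9.17 to 131). H2-Ab1 was 12.4-fold (4.23 to 60.3) and 6.78-fold (4.80 to 9.89) higher. By the rule of 2-fold, 10.3% of genes were higher in chondrocytes than in Ifitm5-high cells at day 10 and 12.3% at day 14, and 8.01% and 8.46% were lower.

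The composition of class II UMIs differed between chondrocytes and the day 7 reference cells. The H2-DM genes made up 87.0% (86.2 to 87.8) of the UMIs of the 7 genes other than Ciita in chondrocytes at day 10, or 6153 of 7073, and 81.7% at day 14, or 5697 of 6975. In the 48 chondrocytes of day 7 they made up 71.9%, or 69 of 96. In the 286 cells of day 7 with a UMI of Cd79a, a chain of the B cell receptor complex, and none of Csf1r, they made up 5.33% (4.81 to 5.89), or 367 of 6883, and 123 of these cells had a Cd74 UMI. The share was 25.2% in the day 7 cells with a UMI of Csf1r and 28.5% in the S100a8-high cells of that day. In Aspn-high cells the share was 79.7% at day 10 and 73.5% at day 14, from 255 and 772 H2-DM UMIs, and the part of free chondrocyte RNA in it was not tested. In cells with 100 or more UMIs per 10000 of Col10a1, the type X collagen of hypertrophic chondrocytes, it was 51.3% and 38.3%, and H2-Ab1 held most of the rest.

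**Figure D2:**
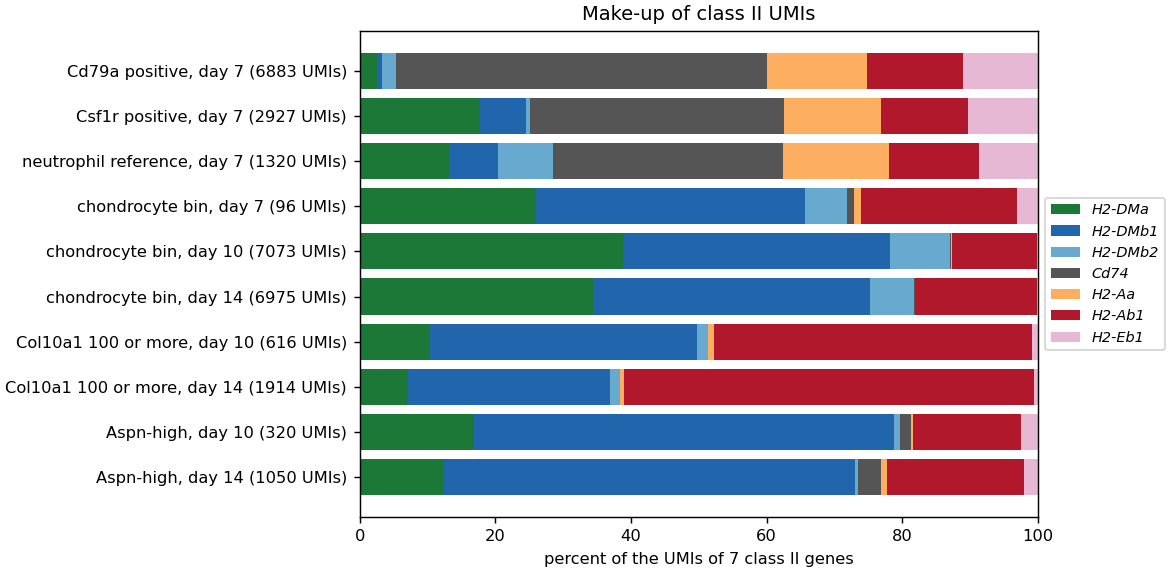
Share of class II UMIs (percent of the 7 genes other than Ciita) that each gene takes in each cell group. The H2-DM genes hold 87.0% in the day 10 chondrocytes and 5.33% in the day 7 Cd79a-positive cells, where Cd74 holds the widest part of the bar.

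The day 7 Cd79a-positive cells served as a reference with UMIs of each class II gene. Cd74 stood at 1516 CPM in them, H2-Aa at 407, H2-Ab1 at 395 and H2-Eb1 at 305, and Ciita at 32.2. H2-DMa stood at 70.0, H2-DMb1 at 22.1 and H2-DMb2 at 55.5 CPM. H2-DMa was thus between its day 10 and day 14 levels in chondrocytes, which come from other libraries. H2-DMb1 was below both, and the surface chains were higher than in chondrocytes by a wide margin. In the 48 chondrocytes of the same day 7 library H2-DMa was lower, at 25.6 (16.6 to 37.8) against 70.0 (60.0 to 81.2). H2-DMb1 stood there at 39.0 (27.6 to 53.5) against 22.1 (16.7 to 28.8), with overlapping intervals. The 6 B cell markers summed to 5390 CPM in the Cd79a-positive cells. S100a8 also stood at 29657 CPM, and its part in these values was not tested. Without the cell limits Cd74 was 658 CPM and H2-DMa 38.0 CPM in these cells.

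The 1213 day 7 cells with a UMI of Csf1r, the receptor for macrophage colony-stimulating factor, and none of Cd79a did not match a macrophage label. The 5 neutrophil markers summed to 193699 CPM in them, against 10738 for the 7 macrophage markers, so they are named here by the gene alone. H2-DMa stood at 60.2 CPM in them, H2-DMb1 at 22.6, H2-DMb2 at 2.31, Cd74 at 127, H2-Aa at 48.2, H2-Ab1 at 43.7, H2-Eb1 at 34.7 and Ciita at 1.39. The 10 cells with the most UMIs held 92.5% of the Cd74 UMIs and 98.3% of the H2-Aa UMIs but 18.0% of the H2-DMa UMIs. H2-DMa was detected in 179 cells, Cd74 in 69, H2-Aa in 17, H2-Ab1 in 27 and H2-Eb1 in 18, so UMIs of the surface chains were in fewer cells than those of H2-DMa. Without the cell limits H2-DMa was 92.3 CPM and Cd74 40.5 CPM. In the 4990 S100a8-high cells of day 7, H2-DMa stood at 4.61 CPM, H2-DMb1 at 2.52, H2-DMb2 at 2.84 and Cd74 at 11.9. The Cd74 UMIs came from 83 cells, and 10 cells held 83.7% of them.

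The use of the 2 H2-DM beta chains differed between cell groups. H2-DMb2 made up 18.3% of the summed H2-DMb1 and H2-DMb2 UMIs in chondrocytes at day 10 and 13.7% at day 14, and 13.6% in the 48 cells of day 7. In Aspn-high cells it made up 1.49% and 0.936%. In Cd79a-positive cells it made up 71.5% (64.6 to 77.8), in the S100a8-high cells of day 7 53.0%, and in Csf1r-positive cells 9.26%. The balance of the I-A chains differed between chondrocytes and the day 7 reference cells. H2-Ab1 made up 98.4% of the summed H2-Aa and H2-Ab1 UMIs in chondrocytes at day 10 and 99.6% at day 14, against 49.2% in Cd79a-positive and 47.5% in Csf1r-positive cells. At day 10 and day 14 the share was also high in Aspn-high cells, at 98.1% and 95.5%. Cells without a Cnmd UMI had 98.9% and 97.3%. Ifitm5-high cells had 100% on both days, from 3 and 33 UMIs. Chondrocytes therefore had a beta chain of I-A with almost no UMIs of its alpha chain, as had these other callus groups.

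Within the callus, the H2-DM genes followed Cnmd up to a point. At day 10, H2-DMa stood at 4.04 CPM in the 1588 cells without a Cnmd UMI, 7.13 below 5 per 10000, 41.8 from 5 to 20, 60.3 from 20 to 50 and 38.5 at 50 or more. H2-DMb1 stood at 12.4, 18.6, 46.6, 61.7 and 36.3 CPM in the same bins, and H2-DMb2 at 0.999, 1.51, 9.96, 13.9 and 7.23. All 3 H2-DM genes thus peaked at 20 to 50 Cnmd UMIs per 10000 and were lower in the 456 cells above that. At day 14, H2-DMa stood at 4.58, 6.92, 39.8, 84.2 and 65.2 CPM, H2-DMb1 at 17.8, 21.4, 60.8, 99.8 and 76.1, and H2-DMb2 at 0.630, 1.65, 7.49, 16.0 and 11.2, with the peak in the same bin.

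H2-Ab1 did not follow the same course. At day 10 it stood at 12.0, 14.0, 47.8, 20.1 and 9.37 CPM over the Cnmd bins, with its peak one bin lower than that of the H2-DM genes. At day 14 it stood at 17.1, 37.2, 40.8, 43.5 and 35.0 CPM, and was near level in the upper 4 bins; in the highest bin, 10 cells held 81.6% of its UMIs. At day 7 it stood at 90.0 CPM (78.8 to 102) in the 333 cells without a Cnmd UMI and 223 (189 to 261) in the 36 cells below 5, both above the 22.6 of the 48 chondrocytes. The B cell markers summed to 757 and 259 CPM in these 2 bins, and their part in the H2-Ab1 values was not tested.

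Across bins of Col10a1 at day 10, the H2-DM genes and H2-Ab1 all peaked at 10 to 100 UMIs per 10000 and were lower at 100 or more. At day 14 the H2-DM genes fell from the 10 to 100 bin to the highest bin, whereas H2-Ab1 did not. At day 10, H2-DMa stood at 23.9 CPM in cells without a Col10a1 UMI, 39.7 below 10 per 10000, 53.9 from 10 to 100 and 7.67 in the 476 cells at 100 or more. H2-DMb1 stood at 27.5, 42.1, 72.0 and 29.0, and H2-DMb2 at 5.75, 8.71, 14.8 and 1.20. H2-Ab1 stood at 9.07, 19.3, 77.2 and 34.6. At 100 or more Col10a1 UMIs, H2-DMa and H2-DMb2 were thus lower than in any other bin, whereas H2-Ab1 was above its level in cells without Col10a1. At day 14, H2-DMa stood at 17.0, 32.4, 22.5 and 6.87 CPM and H2-DMb2 at 2.91, 5.87, 5.99 and 1.43. H2-DMb1 stood at 26.4, 46.1, 45.9 and 29.1, and its levels in the 1116 Col10a1-rich cells (26.7 to 31.5) and in cells without Col10a1 (24.2 to 28.7) had overlapping intervals. H2-Ab1 stood at 13.2, 26.2, 57.1 and 58.9 CPM and its levels in the upper 2 bins had overlapping intervals (53.5 to 61 and 55.5 to 62.4). In those cells H2-Ab1 still lacked its partner, at 98.0% of the I-A chain UMIs at day 10 and 99.1% at day 14.

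**Figure D3:**
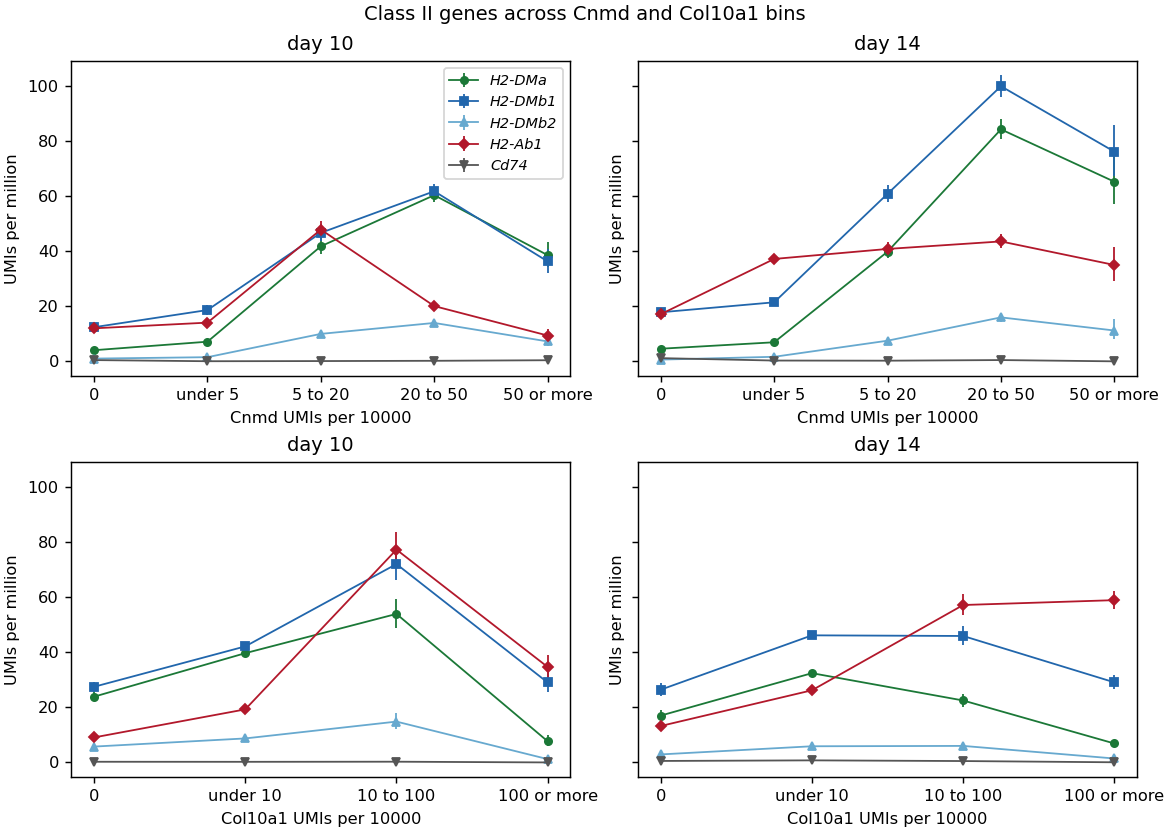
Levels of H2-DMa, H2-DMb1, H2-DMb2 and H2-Ab1 (CPM) over bins of Cnmd and of Col10a1 UMIs per 10000 at day 10 and day 14; bars are exact 95% Poisson intervals. H2-DMa peaks at 20 to 50 Cnmd UMIs (60.3 and 84.2) and drops to 7.67 and 6.87 at 100 or more Col10a1 UMIs, where H2-Ab1 stands at 34.6 and 58.9.

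Cells were also split by both genes at once, and groups of 50 or more cells were read. The summed H2-DM level was highest at day 10 in the 140 cells with 20 to 50 Cnmd and 10 to 100 Col10a1 UMIs per 10000, at 227 CPM, against 145 in cells of the same Cnmd bin with fewer than 10 Col10a1 UMIs and 95.6 in those with none. At day 14 the same 3 groups stood at 185 CPM (86 cells), 211 and 156, so the order of the upper groups differed between days. H2-Ab1 was highest at day 10 in the 127 cells with 5 to 20 Cnmd and 10 to 100 Col10a1 UMIs, at 122 CPM, with 52.3% of the UMIs in 10 cells. At day 14 it was highest in the 569 cells with fewer than 5 Cnmd and 100 or more Col10a1 UMIs, at 77.1 CPM. H2-Ab1 did not simply fall with Cnmd: among cells with 10 to 100 Col10a1 UMIs it stood, from no Cnmd to 20 to 50, at 31.3, 25.5, 122 and 71.2 CPM at day 10 and at 40.8, 58.9, 66.8 and 64.3 at day 14.

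**Figure D4:**
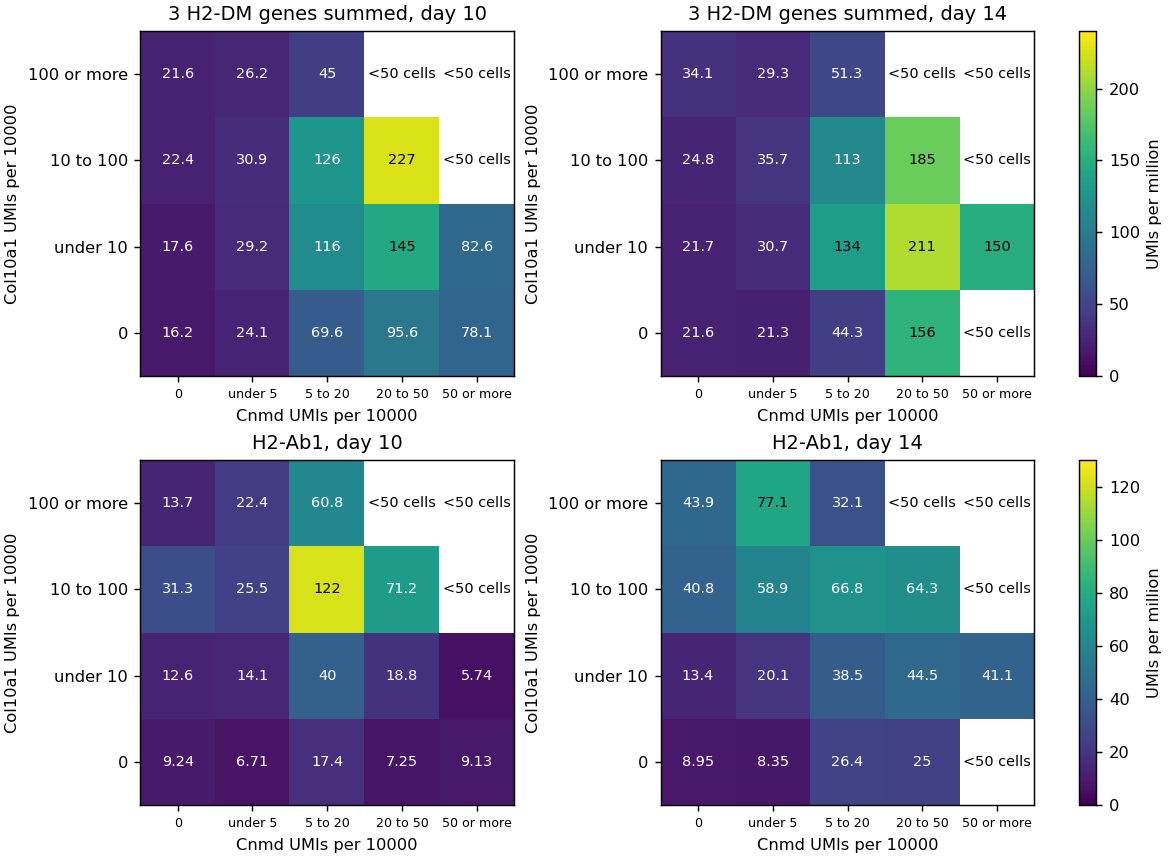
Summed H2-DM level and H2-Ab1 level (CPM, shade and printed value) in cells split by Cnmd and by Col10a1 UMIs per 10000, at day 10 and day 14. The H2-DM sum is highest at 20 to 50 Cnmd UMIs (227 at day 10), and H2-Ab1 reaches 122 at day 10 (5 to 20 Cnmd, 10 to 100 Col10a1) and 77.1 at day 14 (under 5 Cnmd, 100 or more Col10a1).

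Over these groups the levels of the H2-DM genes went together. Pearson's r between the levels of H2-DMa and H2-DMb1 was 0.92 over 17 groups at day 10 and 0.96 over 16 at day 14, and between H2-DMa and H2-DMb2 it was 0.95 on both days. Between H2-DMa and H2-Ab1 it was 0.30 and 0.35, and between H2-DMb1 and H2-Ab1 0.57 and 0.53. The groups share a library and are cut by the same pair of genes, so these are descriptions. Of 9557 genes, those whose pattern was most like the H2-DM sum over the 33 groups of both days were Fbxo7, an F-box protein (r = 0.97), Map7d3, a microtubule-binding protein (0.96), Papss2, which makes the sulfate donor of proteoglycans (0.93), Mfge8, Kcna6, Clint1, Matn3, a cartilage matrix protein, Ppp1r1b, Fam20b, a xylose kinase of proteoglycan assembly, and Sdc4 (0.92). H2-Ab1 was at rank 921 on that list, with r = 0.44. For H2-Ab1, a ranking added after the values were seen was led by Bnip3, a mitochondrial protein induced by low oxygen (0.93), and Vapa (0.88). In it H2-DMb1 was at rank 373 (r = 0.56), H2-DMb2 at 925 (0.35) and H2-DMa at 1121 (0.30).

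The levels in the cells with 20 or more Cnmd UMIs per 10000 were higher at day 14 than at day 10 for all 4 genes. The ratio of day 14 to day 10 was 1.44 (1.36 to 1.52) for H2-DMa, 1.68 for H2-DMb1, 1.19 for H2-DMb2 and 2.31 (2.12 to 2.52) for H2-Ab1. In Aspn-high cells it was 1.05 (0.758 to 1.47) for H2-DMa, 1.39 for H2-DMb1 and 1.80 for H2-Ab1. In cells with 10 to 100 Col10a1 UMIs per 10000, pooled over Cnmd, the direction was the opposite for all 4: the ratio was 0.417 for H2-DMa, 0.637 for H2-DMb1, 0.405 for H2-DMb2 and 0.740 for H2-Ab1. From 5 to 20 Cnmd UMIs it was 0.853 (0.780 to 0.933) for H2-Ab1, 0.752 (0.612 to 0.923) for H2-DMb2, 0.953 (0.868 to 1.05) for H2-DMa and 1.30 (1.20 to 1.42) for H2-DMb1. The Cnmd make-up of the cells with 10 to 100 Col10a1 UMIs differed between days: 55 of 405 and 311 of 1040 had no Cnmd UMI. From no Cnmd to 20 to 50, H2-DMa in them stood at 1.49 (1 UMI), 10.1, 51.7 and 86.0 CPM at day 10. At day 14 it stood at 4.7, 6.65, 36.2 and 67.7. H2-Ab1 stood at 31.3, 25.5, 122 and 71.2 CPM and at 40.8, 58.9, 66.8 and 64.3, so it was higher at day 14 where Cnmd was low. The direction thus differed between genes and with the cells taken, and the library of each day cannot be told apart from the day.

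In single chondrocytes the H2-DM UMIs were spread unevenly. At day 10, 1164 of the 2522 cells (46.2%) had no H2-DM UMI, 172 (6.82%) had 10 or more, and the highest had 59. At day 14, 582 of 1406 (41.4%) had none, 187 (13.3%) had 10 or more, and the highest had 76. H2-Ab1 was concentrated in fewer cells: 89.5% of the cells at day 10 and 80.2% at day 14 had none, and the highest had 37 and 32 UMIs. The 10 cells with the most UMIs held 21.1% of the H2-Ab1 UMIs at day 10 but 7.50% of those of H2-DMa.

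When each cell was thinned to 5000 UMIs, H2-DMa was detected in 16.3% of the chondrocytes and 1.67% of Aspn-high cells at day 10 (33.5% of chondrocytes unthinned). H2-DMb1 was detected in 18.8% and 5.73%, H2-DMb2 in 4.71% and 0.0881%, and H2-Ab1 in 5.12% and 1.41%. At day 14 the shares were 19.3% and 1.33% for H2-DMa, 24.9% and 7.23% for H2-DMb1, 5.87% and 0.111% for H2-DMb2 and 10.2% and 2.15% for H2-Ab1. The order of the groups was thus the same at equal depth. Median depths were 19012 UMIs in chondrocytes and 15072 in Aspn-high cells at day 10.

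The genes were also found together in the same cells. In chondrocytes thinned to 10000 UMIs, a depth chosen after seeing the data, H2-DMa was detected in 42.6% (38.8 to 46.4) of cells with H2-DMb1 and 17.1% (15.3 to 19.0) of cells without it at day 10, and in 53.0% and 15.7% at day 14. H2-Ab1 was detected in 14.0% of cells with H2-DMa and 5.28% of those without it at day 10, and in 30.4% and 7.62% at day 14. In cells with 100 or more Col10a1 UMIs, H2-Ab1 was detected in 10.0% (2.11 to 26.5) of cells with H2-DMa and 13.5% (10.2 to 17.4) of those without at day 10, and in 26.0% and 22.0% at day 14, with overlapping intervals on both days. In the Col10a1-rich cells, then, detection of H2-Ab1 did not differ beyond counting error by whether H2-DMa was present.

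The H2-DM level also moved with the depth of the cell. With the day 10 chondrocytes ranked by total UMIs and divided into 3 equal groups, a division added after the data were seen, the H2-DM sum stood at 77.2 CPM in the shallow cells, 107 in the middle ones and 165 in the deep ones, with median depths of 13138, 19013 and 25695 UMIs. At day 14 it stood at 101, 166 and 255. In Aspn-high cells it stood at 19.9, 14.9 and 12.0 at day 10 and at 20.5, 18.5 and 18.7 at day 14, so the deep cells were not higher there. The H2-DM sum was higher in the shallow chondrocytes than in any depth group of the Aspn-high cells. The part of depth in the chondrocyte values was not tested.

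The wider class II pathway list was near the shares over all genes. Of the 21 genes of the class II pathway list, 13 had enough UMIs in chondrocytes and Aspn-high cells at day 10, with 0 higher and 4 lower in chondrocytes, and 15 at day 14, with 0 higher and 4 lower; of all genes compared, 7.60% and 6.87% were higher and 19.6% and 20.9% lower. The median log2 ratio was −0.47 and −0.70, against −0.33 and −0.37 over all genes. The lower ones included the endosomal proteases Ctsl (−2.03 at day 10) and Ctsb (−2.17 and −2.26) and, at day 14, the costimulator Cd80 (−2.57). The protease Ctsd (0.48 and 0.22) and the asparagine endopeptidase Lgmn (0.16 and 0.47) were neither. H2-Oa and H2-Ob, the chains of the inhibitor of H2-DM, had from 0 to 2 UMIs in chondrocytes, as had Cd86 and Cd40. The Rfx and Nfy factors, which bind the X and Y boxes, were neither higher nor lower on either day. Against Ifitm5-high cells, 3 of 12 genes of this list were higher at day 10 and 1 of 12 at day 14, with 0 lower and medians of 0.04 on both days, where 10.3% and 12.3% of all genes were higher and 8.01% and 8.46% lower.

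The class I genes, which present peptides of the cell's own cytosol to CD8 T cells, were lower in chondrocytes than in Aspn-high cells in 9 of 11 cases at day 10 and 8 of 11 at day 14, with 0 higher and medians of −1.87 and −1.41. Of all genes compared, 19.6% and 20.9% were lower, with medians of −0.33 and −0.37. The immunoproteasome subunit Psmb8 had log2 ratios of −4.49 and −2.83, the light chain B2m −1.99 and −1.53, and the heavy chain H2-D1 −1.81 and −1.32. H2-K1, at −1.20 and −0.67 (interval −0.75 to −0.60), passed the 2-fold limit at day 10 and was below 0 but short of it at day 14. Of the 16 genes of the interferon gamma response, 14 had enough UMIs, with 0 higher and 9 lower at day 10 and 0 higher and 5 lower at day 14. Iigp1, an interferon-induced GTPase, had ratios of −5.16 and −2.29, and the chemokine Cxcl9 −4.95 and −4.03. Interferon gamma is a known inducer of Ciita in cells that do not present antigen by profession. Against Ifitm5-high cells fewer were lower: 4 class I genes were lower at day 10 and 0 at day 14, and of the interferon genes 1 of 11 was higher and 5 lower at day 10 and 3 of 13 were higher and 2 lower at day 14. Of all genes, 10.3% and 12.3% were higher and 8.01% and 8.46% lower against these cells. The median of the interferon genes was −0.85 at day 10 and 0.56 at day 14, against 0.05 over all genes on both days, so its sign differed between days.

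**Figure D5:**
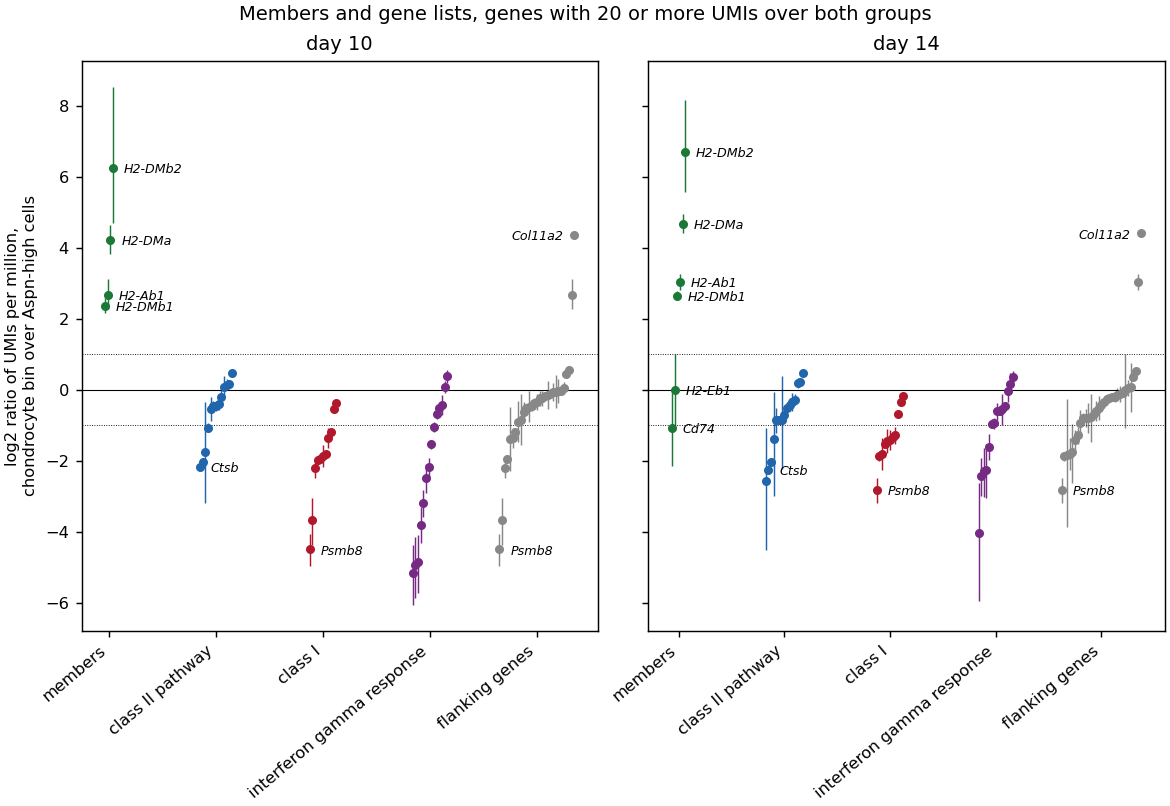
Log2 ratio of chondrocytes to Aspn-high cells for the class II genes (members) and each gene of the class II pathway, class I, interferon gamma and flanking lists at day 10 and day 14, with exact 95% intervals; dotted lines mark a 2-fold difference. H2-DMa (4.21 and 4.67), H2-DMb1, H2-DMb2 and H2-Ab1 lie above 2, whereas class I genes such as Psmb8 (−4.49 and −2.83) and B2m lie below 0.

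The neighbours of the H2-DM genes on chromosome 17 were near the shares over all genes. Of 48 other genes within 300 kb, 29 had enough UMIs at day 10 and 31 at day 14, with 2 higher and 7 lower in chondrocytes on each day, and medians of −0.35 and −0.43, against 7.60% and 6.87% higher, 19.6% and 20.9% lower and medians of −0.33 and −0.37 over all genes. The 2 higher ones were H2-Ab1 and Col11a2, a cartilage collagen chain that lies 52856 bases from the H2-DM genes (log2 ratio 4.36 at day 10, from 3116 and 152 CPM). These neighbours include the members H2-Ab1, H2-Aa and H2-Eb1. Tapbp, Psmb9, Tap1, Psmb8 and Tap2, lower on both days, and H2-K1, lower at day 10, were already counted in the class I list. Between the H2-DM genes and H2-Ab1 lie the class I genes Psmb9, Tap1, Psmb8 and Tap2, from 21757 to 43297 bases away, and at day 14 they had log2 ratios of −1.80, −1.41, −2.83 and −1.29. A stretch of genes that were lower in chondrocytes thus lies between genes that were higher. Brd2, a chromatin reader that overlaps H2-DMa on the opposite strand, was neither higher nor lower (−0.03 at day 10 and −0.19 at day 14).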

How the data were processed

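The authors deposited, for each of the 3 libraries, a filtered matrix of raw UMI counts per gene and cell, made with Cell Ranger (version 3.0 on mm10, per the submitters' processing notes). The labels, the methods of the study and the file headers name different versions of the kit and software. Cells with 500 to 5000 genes, at most 10% mitochondrial and at most 5% hemoglobin UMIs were kept, after the limits given in the study. Counts of each gene were summed over the cells of a group and divided by all UMIs of these cells (CPM). Exact Poisson intervals were computed for levels, Clopper-Pearson intervals for shares and exact binomial intervals for ratios, with scipy 1.17.1 in Python 3.11.15. A gene was compared between groups with 20 or more UMIs over both, and was called higher or lower past 2-fold with its interval beyond 1. Ptprc-positive cells were left out of all groups but the day 7 reference cells. Named genes were the 8 members, the class II, class I and interferon gamma lists, the genes within 300 kb, and the 10 genes most like the H2-DM sum by Pearson's r of log2(CPM + 10). Members and lists were chosen with earlier results of these data known. Positions were taken by gene identifier from the GENCODE annotation of GRCm38 (99.6% of identifiers matched), and promoters from RefSeq by symbol. The intervals and calls were tested on simulated pooled counts with counting error only. UMIs gathered in few cells were not simulated, so the test does not cover them. Alternatives were other cell limits, bin limits, denominators and weights.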

Additional observations from a re-analysis of the deposited data

Results flagged for a closer look

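Among cells with 20 to 50 Cnmd UMIs per 10000, those with 10 to 100 Col10a1 UMIs had a higher H2-DM sum than those with fewer than 10 at day 10 (log2 ratio 0.65) and a lower one at day 14 (−0.19). H2-DMa had log2 ratios of 0.39 and −0.39. The opposite directions called for a closer look, and the difference between days was not tested.

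The 173 day 14 cells with a Ptprc UMI entered no comparison, and in them 5 class II genes stood above the level in the cells without one. Cd74 stood at 230 CPM in them against 0.603, H2-Aa at 88.6 against 0.400, H2-Ab1 at 118 against 31.9, H2-Eb1 at 69.2 against 0.538 and Ciita at 1.42 (3 UMIs) against 0.0328. The cell with the most UMIs of each gene held 338 of the 486 Cd74 UMIs, 127 of the 187 H2-Aa UMIs, 160 of the 248 H2-Ab1 UMIs and 106 of the 146 H2-Eb1 UMIs, and 6 cells held any Cd74 UMI. H2-DMa stood at 26.5 CPM against 26.0, with overlapping intervals. H2-DMb1 was lower in them, at 22.8 CPM against 41.2, and so was H2-DMb2, at 1.42 (3 UMIs) against 4.91.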

How the results depend on the processing

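With 1 library per day, the spread between animals is unknown, and Cd74, H2-Aa, H2-Eb1 and Ciita in chondrocytes rest on 0 to 15 UMIs. No paired analysis was possible because no result comes from a test and the days share only 1 replicate number; ratios between cell groups were taken within each library. No alternative reversed the log2 ratio of the H2-DM sum between chondrocytes and Aspn-high cells; in Csf1r-positive cells, however, Cd74 was above H2-DMa with the cell limits (127 and 60.2 CPM) and below it without them (40.5 and 92.3). The log2 ratio of the H2-DM sum between chondrocytes and Aspn-high cells, 3.14 at day 10, was 2.72 with a Cnmd and Aspn limit of 40 and 2.87 as a mean over cells. At day 14, 3.36 became 3.18 with limits of 10, 3.15 as a mean over cells and 3.49 without the 50 most abundant genes in the denominator. The H2-DM share of class II UMIs in chondrocytes, 87.0% at day 10, was 88.3% with no cell limits or no upper limit on genes, 82.2% with limits of 10, 91.5% with limits of 40 and 85.7% without H2-DMb2. At day 14, 81.7% became 82.9% with no cell limits, with no upper limit or with limits of 40, 79.8% with limits of 10 and 80.4% without H2-DMb2. In Cd79a-positive cells, 5.33% became 6.14% with no cell limits, 6.12% with no upper limit and 3.40% without H2-DMb2. Of these 36 ratios and shares recomputed, 18 moved. Of 320 levels recomputed, 38 moved beyond their interval, as did 36 of 72 shares of cells. The count of higher genes at day 14, 992, was 1202 with no filter and 1593 against Ifitm5-high cells, a reference chosen after seeing the data; the day 10 count, 1079, was 1152 and 1394.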
